A study of Mus musculus with 24 samples.

Results

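The nuclear-encoded subunits of the mitochondrial respiratory chain and of ATP synthase were followed across embryonic forebrain, lens epithelium and lens fibers of the mouse. The 80 genes were taken by symbol from the 23947 genes of the expression matrix. They were all symbols that begin with Nduf followed by a, b, c, s or v and a digit (37 genes, called complex I here), with Uqcr (8, complex III), with Cox and a digit from 4 to 8 (18, complex IV) or with Atp5 (17, complex V). The rule reads symbols and no measured value, though it was set with earlier results of these data known. The study set out to compare Pax6 binding, chromatin and RNA in forebrain and lens of CD-1 mice, and its 24 samples include 3 RNA-seq libraries from total RNA, made with a strand-specific dUTP method. These are the E12.5 embryonic forebrain, the epithelium of the newborn lens at postnatal day 1 and the fibers of the newborn lens at postnatal day 1, with no genetic change or treatment named in any of them. Each group held 1 library, whether animals were pooled is not stated in what was used here, and no difference below could be set against replicates. Forebrain and lens differ in age as well as tissue, and these cannot be told apart.

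The respiratory chain passes electrons from NADH and succinate to oxygen and pumps protons across the inner mitochondrial membrane, and ATP synthase uses the proton gradient to make ATP. Complex I takes electrons from NADH, complex III passes them from ubiquinol to cytochrome c, complex IV (cytochrome c oxidase) passes them to oxygen, and complex V is ATP synthase. All but complex II also hold subunits made from mitochondrial DNA, so nuclear transcripts are only part of the supply. The lens is a special case: the epithelium keeps its mitochondria, while maturing fibers lose mitochondria and nuclei as they become transparent, and the outer fibers of a newborn lens have not yet done so.

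Symbols do not map onto complexes without exceptions. Ndufa4 is now placed in complex IV, Ndufa4l2 is its paralog, Cox7a2l is a factor that joins complexes III and IV into supercomplexes, and Atp5s and Atp5sl are not structural parts of the ATP synthase. They were kept where the symbol puts them. Ndufab1 and Cyc1, which encode subunits of complexes I and III, do not match the symbols and are not among the 80. No gene encoded by mitochondrial DNA was analysed here.

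Levels are in RPKM, reads scaled by gene length and library size, as the authors deposited them, and their depth is unknown. The forebrain and fiber markers were highest in the libraries so labelled: the 8 forebrain markers summed to 948.9 RPKM in forebrain, 18.7 in epithelium and 4.19 in fiber, and the 11 fiber markers to 41.1, 2049 and 847600 RPKM. The 7 lens epithelium markers separated the lens libraries less well, with sums of 48.1, 1483 and 1205 RPKM: Foxe3, Cdh1, Pdpn, Pax6 and Trpm3 were at least 2-fold lower in fiber, Aldh1a1 was near level (784.4 RPKM in epithelium, 642.6 in fiber) and Clu was higher in fiber (237.6 and 450.5). The epithelium library also held vessel markers (6 of 6 above 5 RPKM, summing to 56.7 RPKM, against 23.6 in forebrain and 1.75 in fiber) and pigment markers (Tyrp1 at 21.2 RPKM). The 6 blood markers summed to 1138 RPKM in forebrain, 343.6 in epithelium and 5.99 in fiber, mostly from Hba-a1 and Hbb-b1, and so were low in fiber in both fiber comparisons. The part of vessel, pigment and blood cells in the values below was not tested. In bulk tissue, fewer cells of a type and less RNA per cell cannot be told apart. The 15 crystallins took 68.3% of the summed RPKM in fiber, 3.67% in epithelium and 0.0178% in forebrain. Comparisons are given as log2((RPKM + 1)/(RPKM + 1)) over genes of at least 1 RPKM in either library, so that differences between low values come out too small. Over all genes that passed, the median of this ratio was -0.03 with epithelium set over forebrain. It was -0.41 with fiber set over forebrain and -0.42 with fiber set over epithelium, and the members are read against these values.

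The summed level of the 80 members was 7501 RPKM in forebrain, 7664 in epithelium and 17991 in fiber. Forebrain and epithelium were thus close in their total, and the fiber library stood above both. A share was also taken of the summed RPKM of all genes other than crystallins and small RNAs. Small RNAs here are the small nucleolar and Cajal body RNAs and the RNAs Rmrp and Rpph1. In that share the members held 2.73%, 3.31% and 5.15% in the same order. All 4 complexes shared this order of libraries in that share: complex I held 0.87%, 1.12% and 2.07%, complex III 0.293%, 0.4% and 0.583%, complex IV 0.652%, 0.793% and 1.2%, and complex V 0.917%, 1.0% and 1.29%. The order of forebrain and epithelium depends on the scale, since the sum divided by was 274603 RPKM in forebrain and 231372 in epithelium. In summed RPKM complex V was lower in epithelium than in forebrain, at 2517 in forebrain, 2316 in epithelium and 4518 in fiber. The other complexes kept the order. At least 10 RPKM was reached by 63 members in forebrain, 63 in epithelium and 67 in fiber.

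**Figure D1:**
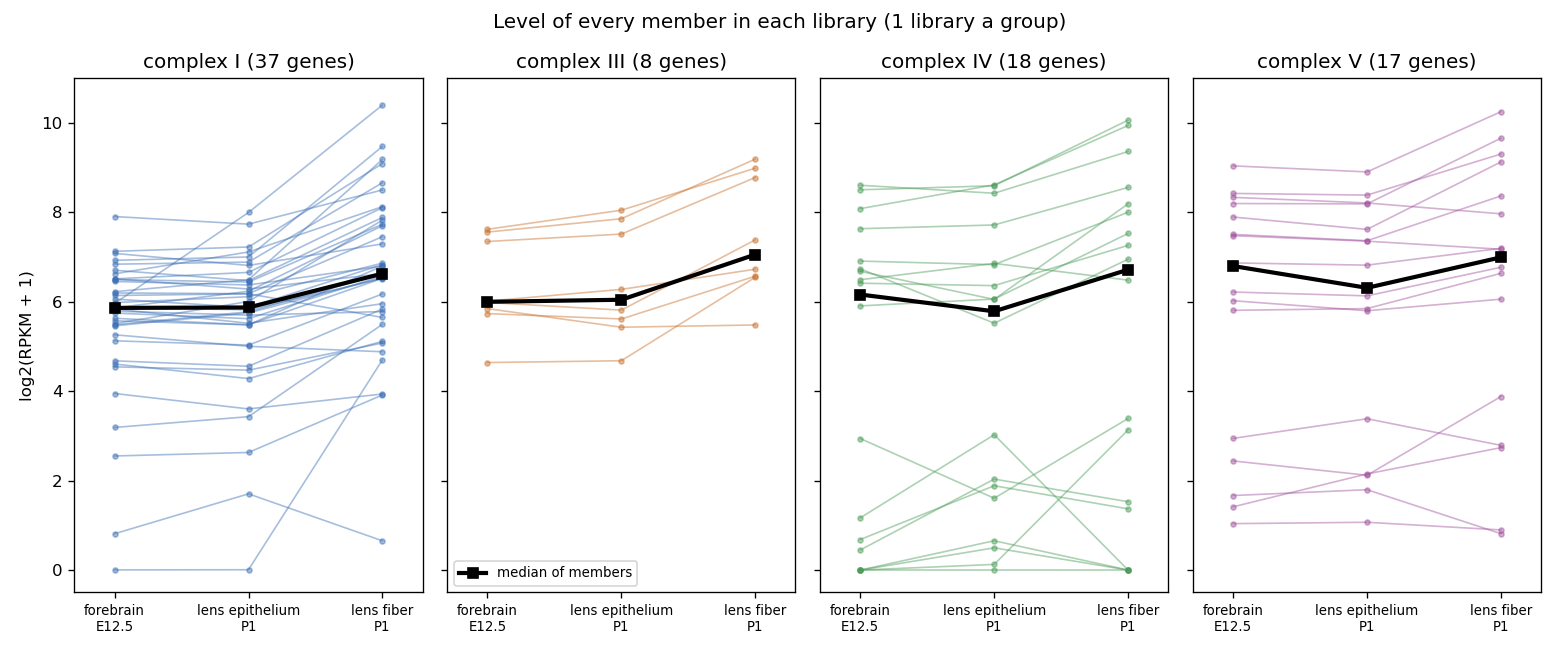
Level of each of the 80 members in the 3 libraries, by complex, on a log2(RPKM + 1) axis, with 1 line a gene and the median of the members in black; lines only join the values of a gene and do not mark a time course. The median RPKM of complex I members was 57.3 in forebrain, 57.7 in epithelium and 98.2 in fiber, and most lines turn upward only at the fiber library.

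Between lens epithelium and forebrain the subunits differed little. Of the 75 members that passed the filter, 69 lay within 2-fold, 4 were at least 2-fold higher in epithelium and 2 at least 2-fold lower. Over all genes that passed, 25.6% lay past 2-fold, with 13.7% higher in epithelium and 11.9% lower. Among genes of at least 20 RPKM in fiber, the library outside this comparison, 17.6% were higher and 4.47% lower past 2-fold, and of the 63 members among them 1 was higher and 1 lower. With libraries scaled to equal sums outside crystallins and small RNAs, 5 members were higher and 1 lower, with 17.8% and 9.3% of all genes. The medians were -0.05 for complex I, 0.10 for complex III, 0.09 for complex IV and -0.09 for complex V. Of the 4 higher members, 3 were isoforms at low levels (Cox6b2, Cox7a1 and Cox4i2, described below), and the other was Ndufa1. The 2 lower members were Cox5a, a subunit of the matrix side of complex IV (105.8 RPKM in forebrain, 44.99 in epithelium and 123.0 in fiber), and Cox7c (6.69, 2.05 and 9.49 RPKM).

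Lens fiber stood above lens epithelium for most subunits. Of the 77 members that passed, 36 were at least 2-fold higher in fiber, 2 were at least 2-fold lower and 39 lay within 2-fold. Over all genes that passed, 39.6% lay past 2-fold, with 11.4% higher in fiber and 28.3% lower. The medians were 1.01 for complex I, 1.11 for complex III, 1.17 for complex IV and 0.64 for complex V, against -0.42 for all genes. In all, 65 of the 77 members were above 0, and 70 were above the median of all genes. The size of this count depended on the scale. With libraries scaled to equal sums outside the crystallins, 14 members were at least 2-fold higher and 5 lower, with 6.41% and 42.1% of all genes, and with ratios centred on the median of all genes 55 were higher and 1 lower, with 18.5% and 16.5%. Scaling outside crystallins and small RNAs gave 13 higher and 5 lower, with 6.08% and 44.7%. In log2, the 2 scalings outside crystallins lower fiber over epithelium by about 0.54 and 0.59, and less at low values because of the pseudocount. Positive ratios smaller than the shift change sign, and 55 of the 77 members then lie above 0 in place of 65. The medians of the 4 complexes stay above 0 under both, the lowest being complex V at 0.14 and 0.09. Those of all genes are -0.83 and -0.89.

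Well-expressed genes could differ from the rest, so genes were also taken by their level in the forebrain, the library outside this comparison. Of 2292 genes with at least 20 RPKM in forebrain, 14.2% were at least 2-fold higher in fiber than in epithelium and 26.2% at least 2-fold lower, and their median ratio was -0.15. The 62 members among them had a median of 0.96, with 30 at least 2-fold higher and 0 lower.

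Fiber over forebrain gave 37 members at least 2-fold higher, 1 lower and 38 within 2-fold of the 76 that passed. Over all genes that passed, 47.5% lay past 2-fold, with 15.9% higher and 31.6% lower. Among genes of at least 20 RPKM in epithelium, 27.2% were higher and 21.5% lower, and of the 61 members among them 30 were higher and 0 lower. Scaling outside crystallins left 19 members higher and 2 lower, with 11.0% and 41.3% of all genes. The medians of complexes I, III, IV and V were 1.11, 1.38, 0.92 and 0.55, against -0.41 for all genes. This comparison shares the fiber library with fiber over epithelium, so its values are given beside those and are not a second measurement of the fiber level.

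**Figure D2:**
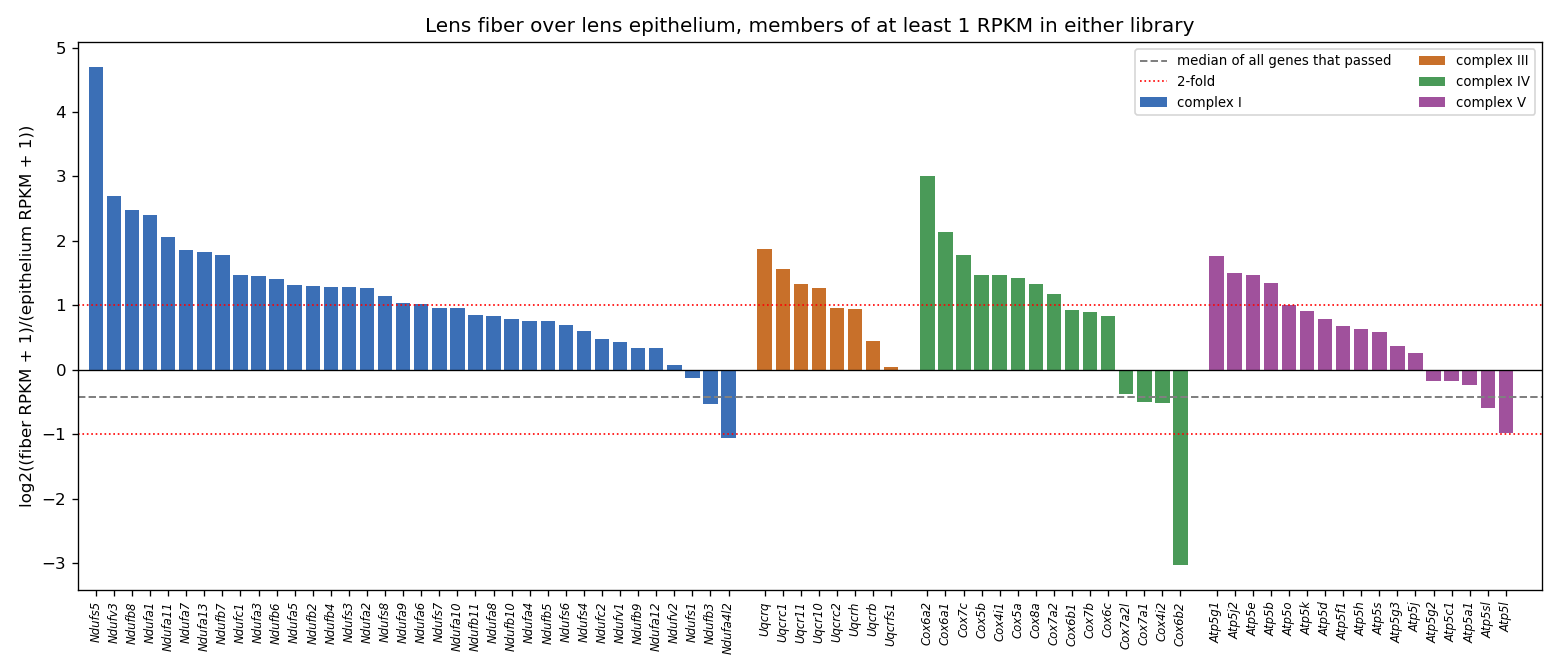
Log2 ratio of fiber over epithelium for the members of at least 1 RPKM in either library, 1 bar a gene with 1 member not drawn, ordered within each complex; the dashed line is the median of all genes (-0.42) and dotted lines mark 2-fold. The bars of complex III all lie at or above 0.05, while complexes I, IV and V hold members on both sides of 0.

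In complex I, a core of 7 nuclear subunits carries the flavin and the iron-sulfur clusters, and the accessory subunits surround it. The core genes differed less between fiber and epithelium than the accessory genes. Among the core genes, Ndufs3 (22.6 RPKM in epithelium, 56.2 in fiber) and Ndufs8 (31.8 and 71.4) were at least 2-fold higher in fiber, with ratios of 1.28 and 1.14. Ndufs7 followed at 0.96 (57.7 and 113.1 RPKM). Closer to 0 stood Ndufv1, which binds NADH and flavin, at 0.44 (44.9 and 61.3 RPKM), Ndufv2 at 0.08 (51.1 and 54.1) and Ndufs1, the largest iron-sulfur subunit, at -0.12 (31.1 and 28.5). The median of the 7 core genes was 0.44. That of the 28 accessory genes was 1.28, with 17 at least 2-fold higher and 0 lower, against 11.4% and 28.3% of all genes. With libraries scaled outside crystallins the medians became -0.09 and 0.75, and only 3 of the 7 core genes lay above 0, against 24 of the 28 accessory genes. The median of all genes was then -0.83. Whether core and accessory genes differ beyond the error of the libraries cannot be tested with 1 library a group. Over forebrain the medians were 0.34 and 1.23 in fiber.

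The accessory gene Ndufa1, on the X chromosome, had the highest fiber level of the 80 members. It was listed at 61.5 RPKM in forebrain, 255.0 in epithelium and 1353 in fiber, ratios of 2.03 for epithelium over forebrain and 2.40 for fiber over epithelium. Its rank among the members went from place 42 in forebrain to 9 in epithelium and 1 in fiber. Ndufa1 was the only complex I member past 2-fold between epithelium and forebrain in either direction.

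Ndufv3, the gene of a small subunit of the NADH-binding module, stood at 74.0 RPKM in forebrain, 89.2 in epithelium and 582 in fiber, a ratio of 2.69 for fiber over epithelium. Ndufb8, a membrane-arm subunit often used as a protein marker of assembled complex I, was listed at 120.9, 127.4 and 713 RPKM (2.47). For both genes forebrain and epithelium were nearly level and fiber alone was high. Ndufa11 had lower levels of 8.13, 9.79 and 44.2 RPKM (2.07). Ndufa7 (148.9 RPKM in epithelium, 546 in fiber), Ndufa13 (63.4 and 227) and Ndufb7 (117.6 and 405) had ratios between 1.78 and 1.87. Ndufa13, also known as Grim19, belongs to the membrane arm and is needed for complex I to assemble.

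The other accessory genes past 2-fold lay close together. Ndufc1 (74.4 RPKM in epithelium, 207.6 in fiber), Ndufa3 (100.1 and 275.0), Ndufb6 (88.0 and 236.1), Ndufa5 (43.8 and 110.6), Ndufb2 (86.1 and 212.3), Ndufb4 (5.20 and 14.1) and Ndufa2 (71.6 and 174.8) had ratios from 1.27 to 1.47. Ndufa9 (43.9 and 91.2 RPKM) and Ndufa6 (137.8 and 279.2) were just past 2-fold at 1.04 and 1.01. Just short of it were Ndufa10 at 0.96, Ndufb11 at 0.85, Ndufa8 at 0.83, Ndufb10 at 0.79 and Ndufb5 at 0.75. Ndufb11 and Ndufb10 were past 2-fold over forebrain, at 1.14 and 1.07. Lower still were Ndufs6 at 0.70, Ndufs4 at 0.61 and Ndufc2 at 0.48.

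Some complex I genes went the other way or stayed level. Ndufb3, a membrane-arm subunit, was listed at 69.7 RPKM in forebrain, 71.5 in epithelium and 49.3 in fiber (-0.53). This value lay below the median of all genes, as did 1 other complex I member, Ndufa4l2. Ndufa12 was at 14.5, 11.2 and 14.3 RPKM (0.33) and Ndufb9 at 90.3, 77.1 and 98.2 RPKM (0.34). Ndufa4, the abundant subunit now assigned to complex IV, was at 239.4, 212.7 and 362 RPKM (0.76).

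Ndufs5 cannot be read as a difference between tissues. It was listed at 0.0024 RPKM in forebrain, 0.005 in epithelium and 25.0 in fiber, although it encodes a constitutive subunit. Values under 1 RPKM, though higher than these, also stood at genes that every cell uses: Gapdh, the glycolytic enzyme, was listed at 0.483, 0.199 and 0.573 RPKM, and Cycs, somatic cytochrome c, at 0.789, 0.915 and 0.406 RPKM. RefSeq lists pseudogenes named after 9 of the members: Ndufs5, Atp5l (2), Cox7c, Atp5k (4), Atp5c1, Atp5f1, Cox5b, Ndufa12 and Uqcrh (2). The same count was not made over all genes. How the authors treated reads that match several places is not stated in what was used here, so the levels of members with near-identical copies are uncertain. Among these 9, Atp5k was listed at 343, 334 and 633 RPKM, Uqcrh at 196.3, 264.2 and 508.0, and Ndufa12 at 14.5, 11.2 and 14.3. Cox7c was lower, at 6.69, 2.05 and 9.49 RPKM. Any part of pseudogenes in these levels was not tested. Without Ndufs5, the members at least 2-fold higher in fiber are 35 over epithelium.

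Complex III was the most uniform of the 4 in direction: all 8 genes lay above 0 for fiber over epithelium, with 4 at least 2-fold higher. When scaled outside crystallins, Uqcrb and Uqcrfs1 lay below 0 and the other 6 above. Uqcrq, a small subunit that binds ubiquinone, was listed at 24.0 RPKM in forebrain, 24.7 in epithelium and 92.8 in fiber (1.87). Uqcrc1, a large core protein on the matrix side, was at 62.4, 55.3 and 166.4 RPKM (1.57), and its partner Uqcrc2 at 52.4, 48.1 and 94.3 (0.96). Uqcr11 and Uqcr10 had ratios of 1.33 and 1.27 and Uqcrh, the hinge protein, of 0.94, with fiber levels of 585, 439 and 508 RPKM. Uqcrb, which binds near the ubiquinone site, was at 63.8, 76.7 and 105.2 RPKM (0.45). Uqcrfs1, the Rieske iron-sulfur protein and the only member of complex III that carries a redox center, was the exception at 56.6, 42.2 and 43.8 RPKM (0.05). Cyc1, the heme-bearing cytochrome c1 that the symbols leave out, was at 39.2, 26.0 and 51.2 RPKM (0.95).

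In complex IV, the catalytic subunits come from mitochondrial DNA and all members here except Cox7a2l encode the nuclear subunits around them. Of the 15 genes that passed, 8 were at least 2-fold higher in fiber than in epithelium and 1 was lower, with 11.4% and 28.3% of all genes. The most abundant was Cox4i1, which binds ATP and tunes the enzyme, at 363 RPKM in forebrain, 387 in epithelium and 1071 in fiber (1.47). Cox8a stood at 270.8, 392 and 986 RPKM (1.33) and Cox6b1 at 389, 344 and 658 (0.93). Cox6a1 had the highest ratio among the ubiquitous subunits, with 101.8 RPKM in forebrain, 65.5 in epithelium and 292 in fiber (2.14). Cox5b (59.2, 65.8 and 184.0 RPKM, 1.47) and Cox5a (1.43) were also past 2-fold. Cox5a had nearly the same level in fiber (123.0 RPKM) as in forebrain (105.8), so its ratio over epithelium reflects the low epithelium value. Cox6c (198.1, 209.96 and 377 RPKM) and Cox7b (84.5, 81.4 and 152.7) stayed below 2-fold at 0.84 and 0.90. Cox7c, low in all libraries, had a ratio of 1.78. Cox7a2l, the supercomplex factor, was at 89.3, 115.2 and 88.7 RPKM (-0.37), below its relative Cox7a2 at 119.5, 113.0 and 256.0 RPKM (1.17) in fiber.

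Complex IV is known for isoforms made in muscle, lung or testis, or under low oxygen, and 7 of the members are such genes, with Ndufa4l2 as the 8th. The ubiquitous isoform held at least 97.3% of the RPKM of its subunit in every library and each of the 7 families with such an isoform. Cox6a2, the heart and skeletal muscle isoform, was listed at 0 RPKM in forebrain, 0.0916 in epithelium and 7.79 in fiber, a ratio of 3.01 over epithelium. There it made up 2.6% of the Cox6a1 and Cox6a2 total. The 7 striated muscle markers all lay under 1 RPKM in fiber, with Ckm at 0.784, Tnnc1 at 0.791 and the other 5 listed at 0. Cox6b2, the testis isoform, went in the opposite direction, at 1.25 RPKM in forebrain, 7.15 in epithelium and 0 in fiber.

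Cox7a1 and Cox4i2, the heart and lung isoforms of their subunits, were at 0.366 and 0.606 RPKM in forebrain, 3.10 and 2.70 in epithelium, and 1.89 and 1.58 in fiber. Ndufa4l2, known from the response to low oxygen, was at 0.757, 2.26 and 0.574 RPKM. These 3 genes were highest in epithelium, as were the vessel markers, whose part in this was not tested. Cox7b2 and Cox8b were listed at 0 in forebrain and fiber and at 0.412 and 0.576 RPKM in epithelium, and Cox8c was listed at 0 in all 3 libraries.

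**Figure D3:**
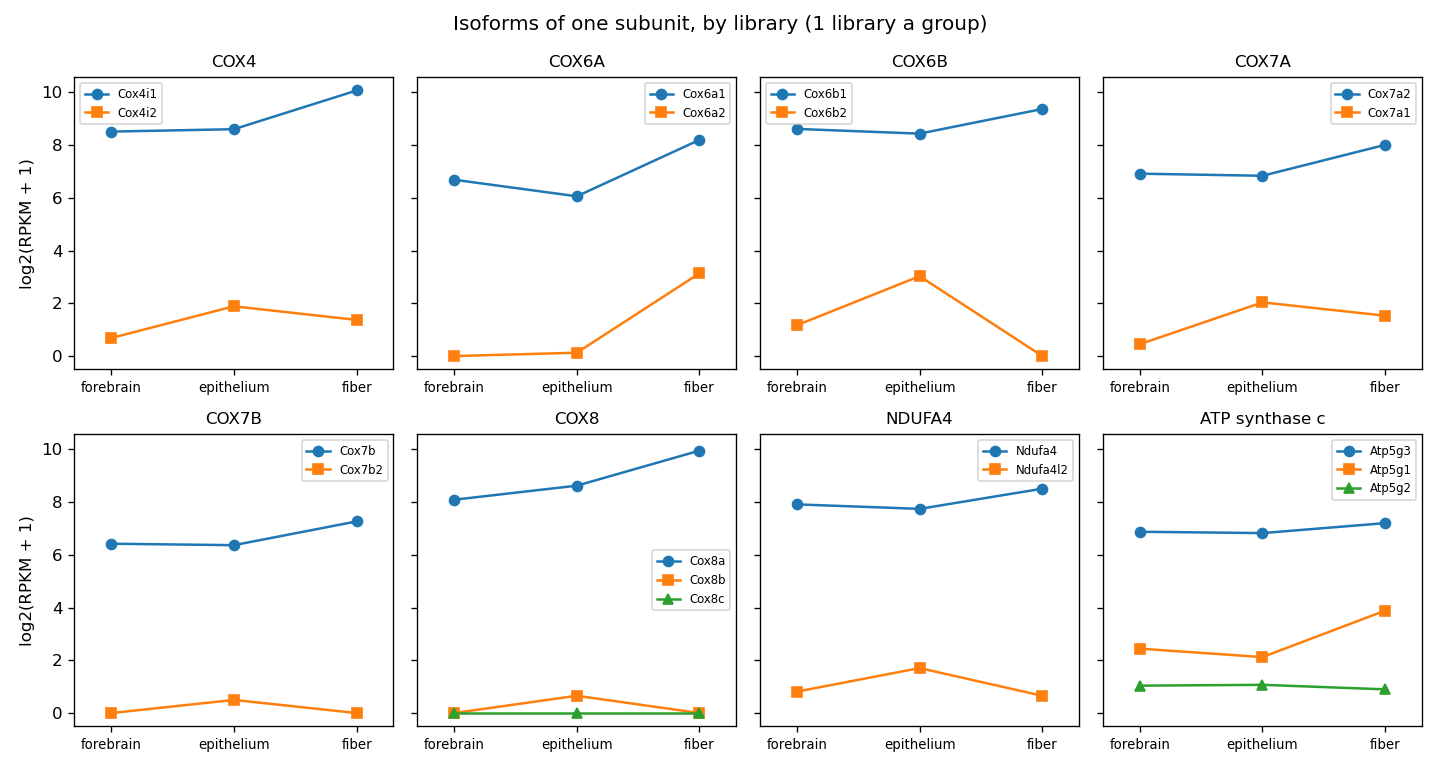
Levels of the isoforms of 8 subunits in the 3 libraries, as log2(RPKM + 1); lines join the values of a gene. In each panel the ubiquitous isoform lies far above the others, and Cox6a2 (7.79 RPKM in fiber) and Cox6b2 (7.15 RPKM in epithelium) are the highest of the tissue-restricted ones.

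ATP synthase was the least shifted of the 4 complexes, with 5 of 17 genes at least 2-fold higher in fiber than in epithelium and 0 lower. The shares of all genes were 11.4% and 28.3%. Its catalytic head holds equal numbers of alpha and beta subunits, and their transcripts differed. Atp5b, the catalytic beta subunit and the highest member in forebrain and epithelium, was listed at 526 RPKM in forebrain, 479 in epithelium and 1221 in fiber (1.35). Atp5a1, the alpha subunit, was at 323, 296 and 249.7 RPKM (-0.24). The gamma subunit of the central stalk, Atp5c1, was also slightly lower in fiber at 177.7, 163.1 and 143.8 RPKM (-0.18). The small subunits of the stalk, Atp5e (293, 292 and 809 RPKM, 1.47) and Atp5d (55.2, 56.7 and 98.6, 0.79), were higher in fiber. The peripheral stalk genes ranged from 0.26 (Atp5j) through 0.64 (Atp5h) and 0.68 (Atp5f1) to 1.00 (Atp5o, 164.3 and 329.8 RPKM, the subunit that confers oligomycin sensitivity).

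The membrane ring of ATP synthase is built of c subunits, which are encoded by 3 genes that give the same mature protein. Atp5g3 held 95.5% of their summed RPKM in forebrain, 96.2% in epithelium and 90.9% in fiber. Atp5g1 was at 4.43, 3.35 and 13.8 RPKM, a ratio of 1.76 that was the highest of complex V, and Atp5g2 at 1.05, 1.10 and 0.863 RPKM. Among the other membrane subunits, Atp5j2 stood at 237.5, 195.9 and 559.8 RPKM (1.51) and Atp5k had a ratio of 0.92. Atp5l, listed at 2.18, 2.48 and 0.758 RPKM (-0.98), was among the lowest of complex V, with Atp5g2. RefSeq names 2 pseudogenes after Atp5l and 4 after Atp5k, and any part of these in the levels was not tested. Atp5s and Atp5sl had low levels, at 5.68 and 5.92 RPKM in fiber, with ratios of 0.59 and -0.59.

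Complex II, the succinate dehydrogenase, lies outside the chosen symbols and is the only complex of the chain made from nuclear genes alone. Its 4 genes did not move in 1 direction. Sdhb, the iron-sulfur subunit, was listed at 91.6 RPKM in forebrain, 73.7 in epithelium and 258.2 in fiber (1.80). Sdha, the flavin subunit, was level at 43.6, 39.6 and 42.45 RPKM (0.10), and the membrane anchors Sdhc (67.1, 43.9 and 23.1, -0.90) and Sdhd (70.3, 84.0 and 49.2, -0.76) were lower in fiber. Their median was -0.33, near that of all genes.

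Genes that assemble or supply the respiratory chain had ratios nearer to those of all genes than the subunits did. Over the 41 assembly factors that passed, 4 were at least 2-fold higher in fiber than in epithelium (Ecsit, Uqcc2, Timmdc1 and Higd1a), 1 was lower (Tmem70) and the median was -0.15. Among all genes 11.4% were higher and 28.3% lower, with a median of -0.42. Uqcc2, an assembly factor of complex III, had the highest fiber level of them, at 114.7 RPKM in forebrain, 158.8 in epithelium and 365 in fiber (1.19). Surf1, a complex IV factor, was at 10.8, 17.4 and 25.5 RPKM (0.52). Atpif1, the inhibitor of ATP synthase, was at 287.5, 159.7 and 227.8 RPKM (0.51).

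Of 14 regulators of mitochondrial genes and mitochondrial DNA that passed, 0 were at least 2-fold higher in fiber than in epithelium and 1 was lower, Esrra (9.10, 7.225 and 2.41 RPKM, -1.27). Of all genes, 11.4% were higher and 28.3% lower. Nrf1 and Gabpa, transcription factors known to bind promoters of respiratory chain genes, were at 20.4, 11.02 and 8.32 RPKM and at 16.25, 17.2 and 11.8 RPKM. Ppargc1a, a coactivator of mitochondrial biogenesis, was listed under 1 RPKM in all 3 libraries, at 0.0197 in fiber. The median of the 14 regulators was -0.34, near the -0.42 of all genes, with 3 above 0 and 9 above the median of all genes.

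The citrate cycle and pyruvate dehydrogenase genes had a median of 0.03 over 17 genes, with 9 above 0, and of -0.49 with 4 above 0 when scaled outside crystallins. Idh2, Idh3g and Idh3b were at least 2-fold higher in fiber (1.22, 1.16 and 1.03) and Suclg2 lower (-3.15), with 11.4% and 28.3% of all genes. Citrate synthase, Cs, was at 51.1, 37.6 and 20.3 RPKM (-0.86). Import and cristae genes had a median of 0.36 over 20 genes, or -0.16 when scaled outside crystallins, with Chchd6, a component of the cristae-organising complex, the highest at 1.91 (12.95 and 51.5 RPKM). Among 6 carriers and channels the median was -0.45. The ADP/ATP carriers Slc25a4 and Slc25a5 were at 637 and 108.3 RPKM in fiber, against 339 and 165.2 in epithelium. The former had a ratio of 0.91 and the latter was lower in fiber.

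**Figure D4:**
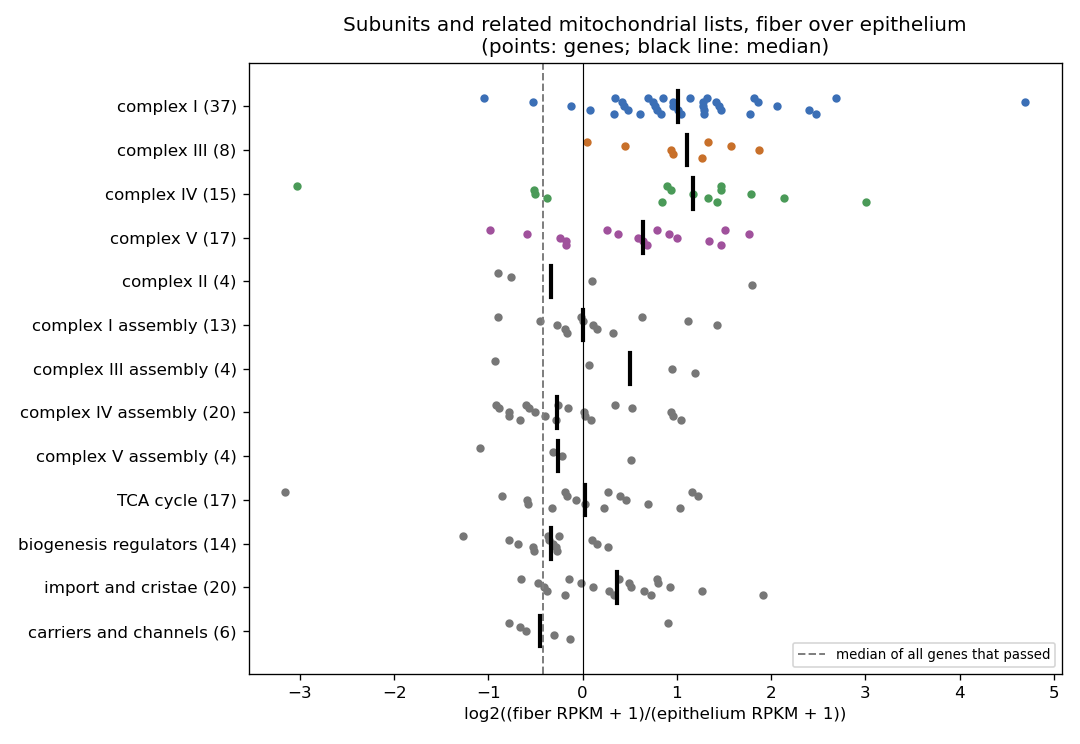
Log2 ratio of fiber over epithelium for the members of complexes I, III, IV and V (colored) and for related mitochondrial lists (grey), 1 point a gene of at least 1 RPKM in either library, with the median of each list in black and the median of all genes dashed (-0.42). The medians of the 4 subunit groups lie at 0.64 to 1.17, above those of the other lists drawn, which run from -0.45 to 0.51; Cyc1 (0.95), the only cytochrome c gene or complex III partner that passed, is not drawn.

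Glycolysis, the other source of ATP, and genes of mitophagy, the removal of mitochondria, give the wider setting. Of 16 glycolytic genes that passed, 7 were at least 2-fold higher in fiber than in epithelium, among them Aldoa (173.3 and 606 RPKM, 1.80) and Pkm (426 and 1057, 1.31), and 3 were lower, among them Ldha (173.9 and 56.0 RPKM, -1.62) and Ldhb (11.6 and 0 RPKM). Of 9 mitophagy genes, 3 were higher, Optn (7.86 and 111.1 RPKM, 3.66), Bnip3 (9.55 and 30.0, 1.56) and Park2, and Fundc1 was lower. For both lists the shares of all genes were 11.4% higher and 28.3% lower.

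Promoters of respiratory chain genes are known for sites of NRF1, of ETS factors such as GABPA, and of YY1. RefSeq promoters of GRCm38.p6, from 250 bases before to 50 after the start, were matched to 66 of the 80 members and to 17805 genes of the matrix, and were searched on both strands for exact letters. The NRF1 motif, with 1 free base at its center (as GCGCATGCGC and GCGCAGGCGC in Cox6a1), was found at 15 of 66 members (22.7%) and 7.24% of all genes. The ETS letters CCGGAAG were at 14 members (21.2%) and 2306 of the 17805 genes, and the YY1 motif at 6 members (9.09%) and 1.42% of all genes. At least 1 of the 3 was present at 30 of the 66 members. This share was not taken over all genes, so it cannot be set against them. The letters CCAAT were at 43.9% of members and 42.3% of genes, TATAAA at 10.6% and 14.4%, and GGGCGG at 39.4% and 49.8%. A match is a description of the letters and not a site in use.

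To show what such promoters look like, the 250 bases before the start are given for Cox6a1, which holds NRF1 and ETS letters and had the highest ratio of fiber over epithelium among members with either apart from Ndufs5, for Ndufb7, the next highest with ETS letters, and for Ndufb8, which was high in fiber and holds none of the 3. Only members with a single listed start and no other gene over the window were shown. Capitals mark any of the 6 searched motifs, read on either strand, and each sequence runs 5′ to 3′ on the strand of the gene.
Cox6a1 (chr5:115348959-115349208, minus strand): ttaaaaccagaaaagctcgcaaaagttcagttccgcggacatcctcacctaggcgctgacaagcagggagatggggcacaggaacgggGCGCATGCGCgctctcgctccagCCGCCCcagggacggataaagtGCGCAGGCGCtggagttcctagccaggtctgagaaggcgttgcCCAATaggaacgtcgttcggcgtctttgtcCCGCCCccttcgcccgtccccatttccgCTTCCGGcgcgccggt
Ndufb7 (chr8:83566508-83566757, plus strand): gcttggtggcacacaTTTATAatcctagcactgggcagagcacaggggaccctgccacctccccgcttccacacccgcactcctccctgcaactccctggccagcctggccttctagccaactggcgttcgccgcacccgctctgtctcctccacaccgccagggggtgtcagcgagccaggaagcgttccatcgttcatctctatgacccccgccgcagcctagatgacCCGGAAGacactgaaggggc
Ndufb8 (chr19:44555443-44555692, minus strand): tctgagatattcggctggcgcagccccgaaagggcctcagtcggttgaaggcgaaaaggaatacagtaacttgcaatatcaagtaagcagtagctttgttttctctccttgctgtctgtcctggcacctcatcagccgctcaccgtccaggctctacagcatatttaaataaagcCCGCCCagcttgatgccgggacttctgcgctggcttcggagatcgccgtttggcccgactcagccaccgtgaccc
In Cox6a1 the NRF1 letters begin 162 and 117 bases before the start and the ETS letters, read on the opposite strand, 16 bases before it. In Ndufb7 the ETS letters begin 20 bases before the start. In Ndufb8 the GGGCGG letters, read on the opposite strand, begin 75 bases before the start and no other of the 6 motifs was found.

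The ratios of fiber over epithelium of members with and without these letters overlapped. The 15 members with NRF1 letters had a median of 1.00 (from -0.18 to 4.70, the highest being Ndufs5) and the 49 without that passed had 0.96 (from -3.03 to 2.69). The 14 with ETS letters had a median of 1.21 (from -0.98 to 2.14) and the 50 without 0.96 (from -3.03 to 4.70). The 6 with the YY1 motif had a median of 0.65 (from -0.59 to 1.04) and the 58 without 1.08 (from -3.03 to 4.70). The 3 highest ratios outside Ndufs5 and Cox6a2, those of Ndufv3, Ndufb8 and Ndufa1, belong to promoters without any of the 3.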

How the data were processed

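RNA-seq was taken from 3 libraries, 1 each of forebrain, lens epithelium and lens fiber. The RPKM values are those the authors deposited. TopHat2 (version 2), Cufflinks (version 2) and Cuffdiff with mm9 are named, without roles, per the submitters' processing notes, while annotation, depth, scaling and the handling of reads with several matches are unstated there. The values are fractional down to very small numbers, so no reads could be recovered. Ratios were log2 of RPKM with a pseudocount of 1, over genes of at least 1 RPKM in either library, with no test, since each group held 1 library (Python 3.11.15, pandas 2.3.3, numpy 2.4.6). The counting of genes past 2-fold was tested on simulated data with planted differences for fiber over forebrain. The simulated fiber was a copy of forebrain without noise, changed only at genes of at least 20 RPKM. It thus checks the counting alone and not the error of the libraries. Peak, island and FAIRE lists are on mm9 and were not used here, since start sites came from GRCm38.p6. All 80 symbols had a RefSeq entry. Every member was counted. Named by rule were, in each complex, the 3 most abundant members and the 3 highest and 3 lowest in fiber over epithelium, besides isoforms, members at 0, members past 2-fold and genes of 21 related lists. Core subunits, and other members set beside these, were named after their values were seen. The members and lists were chosen with earlier results of these data known. The values of 1 member, counted in all totals, are not reported here.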

Additional observations from a re-analysis of the deposited data

How the results depend on the processing

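The 21 counts and medians were recomputed under 9 alternatives, 2 of them (leaving out Ndufs5, and scaling to the sum outside crystallins and small RNAs) chosen after seeing the data. A count was taken as kept within 1.5 times and a median within a 1.5-fold shift, and 163 of 189 values were kept. This number is not a measure of robustness. Scaling outside crystallins lowers fiber over epithelium ratios by at most about 0.54, which lies inside the tolerance for medians. The complex V median counted as kept though it went from 0.64 to 0.09 when scaled outside crystallins and small RNAs. Leaving out Ndufs5 cannot change the medians of complexes III, IV and V. For fiber over epithelium, scaling to the sum outside crystallins gave 19 members past 2-fold (14 higher, 5 lower), and scaling outside crystallins and small RNAs gave 18 (13 higher, 5 lower), with medians of 0.42, 0.52 and 0.58 for complexes I, III and IV. Centring gave 55 higher and 1 lower, and a pseudocount of 5 RPKM, a filter of 5 RPKM and structural subunits alone each left 1 lower (9.69%, 25.8% and 28.3% of all genes). For fiber over forebrain, scaling outside crystallins gave 21 (19 higher, 2 lower; 11.0% and 41.3% of all genes) and a pseudocount of 0.1 RPKM 2 lower (38.3%). A pseudocount of 5 RPKM, a filter of 5 RPKM and centring gave 0 lower (13.1%, 30.4% and 20.3%). For epithelium over forebrain, a pseudocount of 5 RPKM gave 2 (1 higher, 1 lower; 6.1% and 5.04%), a filter of 5 RPKM 2 higher (14.3%), and scaling outside crystallins and small RNAs 5 higher and 1 lower (17.8% and 9.3%). Each complex's median for fiber over epithelium stayed above that of all genes by at least 0.65 in all 10 settings, the main one included. These are not 10 separate checks. Centring cannot change this difference, and the 2 scalings outside crystallins lower members and all genes together. No paired analysis was possible because each RNA group held 1 library. Counts of promoter peaks were not run, since no start sites on mm9 were used here. Depth is unknown, so the precision of low values cannot be given.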
